A study of Mus musculus with 12 samples.

Results

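The genes described here encode the enzymes that turn citrate into fatty acids in the cytosol, together with the transcription factor gene Srebf1. They were taken by identifier as a list of 8 named genes, drawn up with earlier results of these data known. All 8 were present among the 22309 genes of the value table. The livers came from male C57BL/6J mice, 10 weeks old by the labels, in which either ChREBP or GFP, a fluorescent control protein, was overexpressed in the liver. The ChREBP group held 6 mice and the GFP group held 6 mice, each liver being hybridised to its own array. Both proteins were delivered by adenovirus into the tail vein, so that the GFP livers carried a virus as well, and no group without virus was among these arrays. By the methods of the study the virus was given at 8 weeks of age. The interval of weeks stated there before study ends later than the 10 weeks of the labels, and this was not resolved. According to the methods of the study, mice that failed to overexpress the delivered protein were removed, and the fed or fasted state was given for other assays of this model but not for the arrays in the sources used here. Values were log2 expression levels after RMA (robust multichip average, which corrects background, equalises the arrays and summarises probes).

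De novo lipogenesis starts in the mitochondrion, where citrate is made. Citrate leaves through the carrier Slc25a1 and is split by ATP citrate lyase (Acly) into oxaloacetate and acetyl-CoA, whereas acetyl-CoA synthetase (Acss2) makes acetyl-CoA from acetate. Acetyl-CoA carboxylase makes malonyl-CoA, and fatty acid synthase (Fasn) elongates malonyl-CoA units into palmitate with NADPH, part of which comes from cytosolic malic enzyme (Me1). In the liver this pathway is switched on by feeding, through ChREBP, the carbohydrate response element binding protein, which responds to glucose, and through SREBP-1c, a product of Srebf1, which responds to insulin. ChREBP binds DNA with its partner Mlx at pairs of E-box-like sites.

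The 250 bases before an annotated start are shown for 4 of the genes that were higher in ChREBP livers, to set the sequence in front of these enzymes beside their values. They were taken from RefSeq on GRCm38.p6, 5′ to 3′ on the strand of the gene, and capitals mark matches on either strand to CACGTG (a form of the E-box), CCAAT (the CCAAT box, bound by NF-Y) and GGGCGG (the GC box, bound by Sp1).
Slc25a1 (chr16:17928220-17928469, minus strand): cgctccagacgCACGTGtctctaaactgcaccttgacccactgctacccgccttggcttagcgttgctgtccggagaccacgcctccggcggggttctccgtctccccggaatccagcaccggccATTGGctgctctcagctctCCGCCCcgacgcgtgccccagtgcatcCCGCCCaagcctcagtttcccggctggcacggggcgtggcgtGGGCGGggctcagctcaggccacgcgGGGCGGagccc
Acly (chr11:100528001-100528250, minus strand): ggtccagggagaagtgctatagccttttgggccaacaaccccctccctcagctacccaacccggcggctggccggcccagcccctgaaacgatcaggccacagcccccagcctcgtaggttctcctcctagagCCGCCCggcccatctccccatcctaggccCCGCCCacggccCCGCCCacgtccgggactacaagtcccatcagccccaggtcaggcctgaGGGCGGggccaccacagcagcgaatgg
Me1 (chr9:86695915-86696164, minus strand): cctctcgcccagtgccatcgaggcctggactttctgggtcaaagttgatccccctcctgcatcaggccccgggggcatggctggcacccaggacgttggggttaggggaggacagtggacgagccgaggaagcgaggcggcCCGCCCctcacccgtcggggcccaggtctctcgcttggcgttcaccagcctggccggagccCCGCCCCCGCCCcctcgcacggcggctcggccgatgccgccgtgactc
Fasn (chr11:120824548-120824797, minus strand): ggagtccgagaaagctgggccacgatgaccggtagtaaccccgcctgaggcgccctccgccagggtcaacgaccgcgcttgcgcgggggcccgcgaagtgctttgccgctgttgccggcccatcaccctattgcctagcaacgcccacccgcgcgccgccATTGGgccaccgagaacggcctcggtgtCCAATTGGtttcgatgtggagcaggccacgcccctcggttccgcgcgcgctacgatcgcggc
The Fasn start lies inside the annotated gene, downstream of its 5′ boundary, and the only window listed for Acaca lies deep inside that gene, so it is not shown. All 8 genes had a window and 11 windows were listed for them. The E-box form CACGTG was found in the window of Slc25a1 only, where 6.02% of all 32851 windows of the same length hold it. Other single forms of the E-box were not searched. The consensus of the carbohydrate response element was found in 0 of the 11 windows (0.0974% of all windows), and so was the sterol regulatory element searched as TCACNCCAC (1.05% of all windows). A CCAAT box was present in 7 of the 11 windows (33.8% of all windows) and a GC box in 6 of the 11 (32.7% of all windows). The CCAAT box was found for Slc25a1, Me1 and Fasn, but also for Acss2, Acacb and Srebf1, which were not among the genes that were higher. For Me1 it lay in a second window, inside the gene and not shown. The GC box was found for Slc25a1, Acly and Me1, but also for Acss2 and Srebf1. The window of Acaca held neither. The 11 windows include those inside a gene, which made up 5 of the 7 windows with a CCAAT box and 2 of the 6 with a GC box. In Fasn 2 of its CCAAT matches overlap on opposite strands. These matches are descriptions of the letters in these windows. As only 0.0974% of all windows hold the carbohydrate response element consensus, its finding in 0 of 11 cannot show that sites for ChREBP are absent. ChREBP binding was not analysed here. The study mapped it over the genome in cultured primary hepatocytes. It also reported more ChREBP at the ACC and FAS promoters in its ChREBP tumors, which are a model other than these livers.

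Some livers stood apart from the others of their group. Between 38 and 105 genes exceeded the median of the other 5 livers more than 4-fold in ChREBP livers 4, 5 and 6, and 62 did so in GFP liver 6, against 0 to 4 genes in each of the other livers. None of the 8 genes was among them (0 in every liver), and results are given with and without these livers where the difference matters. Median levels per array lay between 5.99 and 6.09. The identifiers of the other genes were not paired with names in the sources used here, so ChREBP itself, its other targets and markers of hepatocytes and other liver cells were not analysed. The pairing of the 8 identifiers with their symbols was given with the list and could not be checked against the files.

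In ChREBP livers transcripts of the main line from citrate to palmitate rose, whereas the alternative acetyl-CoA source, the beta carboxylase and Srebf1 did not pass the test. The genes that rose were Slc25a1, Acly, Me1, Acaca and Fasn, which is 5 of 8 genes called by limma at a Benjamini-Hochberg threshold of 0.05 over all genes, and 0 of 8 fell. Among all genes 26.3% were called, 12.2% as higher and 14.0% as lower. Of the 8 genes, 4 rose at least 1.5-fold and the same 4 at least 2-fold, sizes reached by 3.73% and 1.58% of all genes in that direction. For the 5 genes called, the lowest ChREBP liver exceeded the highest GFP liver, as it did for 7.68% of all genes, and the reverse was seen for 0 of 8 genes, against 6.72% of all genes. The median log2 change of the 8 genes was 0.78, against -0.05 for all genes. In whole liver RNA, fewer or more cells of a type and less or more RNA per cell cannot be told apart.

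**Figure D1:**
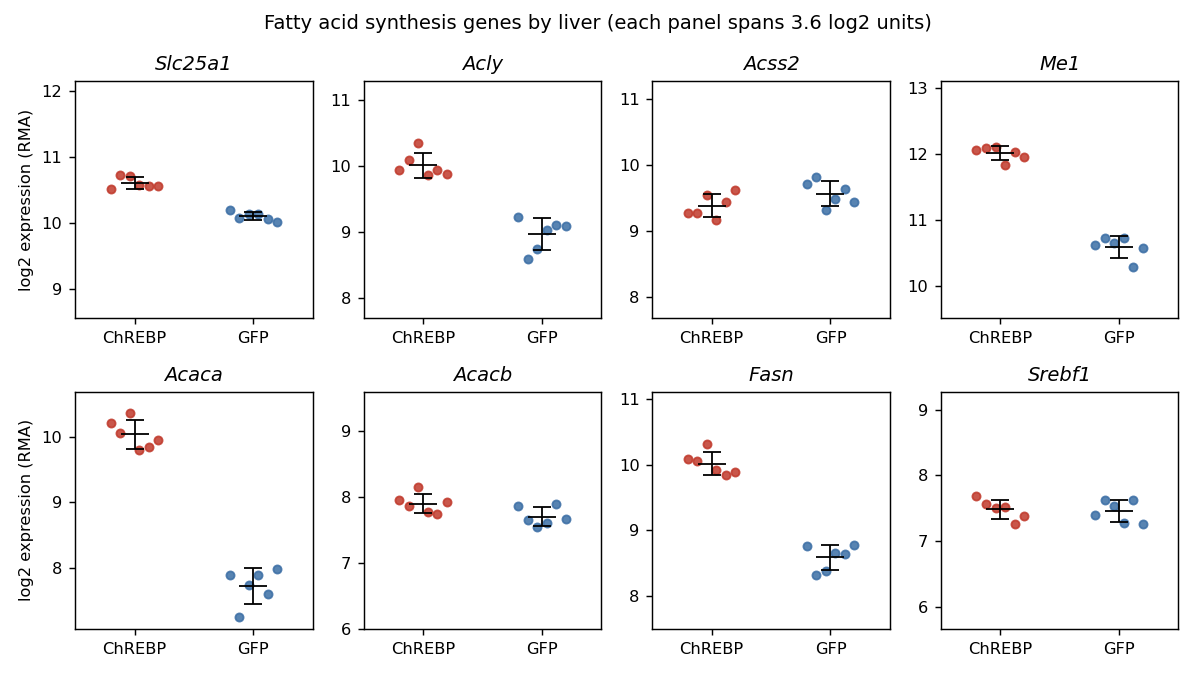
Log2 expression (RMA) of 8 genes in each liver, ChREBP (left in each panel, n = 6) and GFP (right, n = 6), with the mean and SD as bars; all panels span the same number of log2 units. The groups were apart for Slc25a1, Acly, Me1, Acaca and Fasn and overlapped for Acss2, Acacb and Srebf1.

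The supply of cytosolic acetyl-CoA was first examined at the export of citrate. Slc25a1 (ENSMUSG00000003528_at), the mitochondrial citrate carrier, measured 10.51 at the lowest, 10.57 at the median and 10.73 at the highest in ChREBP livers, against 10.02, 10.11 and 10.19 in GFP livers. Every ChREBP liver was higher than every GFP liver, although the groups were only 0.31 apart at their nearest values. The rise was 0.51 on the log2 scale (SE 0.05), or 1.42-fold (95% interval 1.32 to 1.53), with an adjusted p of 6.43e-06 (limma). It was the smallest rise of the 5 genes called and the most even between mice, with an SD of 0.09 in ChREBP and 0.07 in GFP livers (n = 6 each), while the median SD of all genes was 0.11 in each group.

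Acly (ENSMUSG00000020917_at), which splits the exported citrate, ranged from 9.87 through a median of 9.95 to 10.36 in ChREBP livers, compared with 8.60, 9.07 and 9.23 in GFP livers. The groups did not overlap, and ChREBP liver 3 was the highest while GFP livers 2 and 3 were the lowest, at 8.60 and 8.75. The rise was 2.06-fold (95% interval 1.74 to 2.44, log2 change 1.04, SE 0.11, limma adjusted p = 1.39e-05).

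Acss2 (ENSMUSG00000027605_at), the cytosolic and nuclear enzyme that uses acetate instead of citrate, behaved differently. Its lowest, median and highest values were 9.17, 9.36 and 9.62 in ChREBP livers and 9.32, 9.57 and 9.82 in GFP livers. The groups overlapped, with 3 of 6 ChREBP livers below all GFP livers and 0 of 6 above them. The log2 change was -0.18 (SE 0.10, 95% interval -0.39 to 0.02, limma adjusted p = 0.175), so that a rise of more than 1.02-fold lay outside the interval.

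The reducing power of the pathway was represented by Me1 (ENSMUSG00000032418_at), which converts malate to pyruvate and yields NADPH. Me1 measured 11.83, 12.06 and 12.11 (lowest, median and highest) in ChREBP livers and 10.28, 10.64 and 10.73 in GFP livers. The groups were 1.10 apart at their nearest values. The rise was 2.67-fold (95% interval 2.38 to 3.00, log2 change 1.42, SE 0.08, limma adjusted p = 2.7e-08). The GFP livers were close together except for GFP liver 5, the lowest, at 10.28, and without it the rise was 2.56-fold (limma adjusted p = 2.02e-08).

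The carboxylation step showed the largest rise of the 8 genes. Acaca (ENSMUSG00000020532_at) encodes acetyl-CoA carboxylase alpha, the cytosolic enzyme that commits acetyl-CoA to fatty acid synthesis. Its values were 9.80 at the lowest, 9.99 at the median and 10.36 at the highest in ChREBP livers, against 7.26, 7.82 and 7.99 in GFP livers. The lowest ChREBP liver exceeded the highest GFP liver by 1.81, the widest separation among the 8 genes. Acaca rose 4.93-fold (95% interval 4.08 to 5.96), a log2 change of 2.30 (SE 0.13, limma adjusted p = 3.22e-08), and 59 of the 22309 genes had a larger positive change. It also varied most between mice of the 8 genes, with an SD of 0.22 in ChREBP and 0.27 in GFP livers (n = 6 each).

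Acacb (ENSMUSG00000042010_at) encodes the beta isoform, which is anchored at the mitochondrial surface and whose malonyl-CoA is known to restrain fatty acid import by carnitine palmitoyltransferase. It measured 7.74, 7.90 and 8.15 (lowest, median and highest) in ChREBP livers and 7.54, 7.66 and 7.90 in GFP livers. The groups overlapped, 3 of 6 ChREBP livers lying above all GFP livers. The log2 change of 0.20 (SE 0.08, 95% interval 0.03 to 0.37) did not pass the test after adjustment over all genes (limma adjusted p = 0.0791, unadjusted p = 0.0251). Without ChREBP livers 4 and 5 the change was 0.27 and passed (limma adjusted p = 0.0318), as it did without GFP liver 5, at 0.24 (limma adjusted p = 0.0442). It did not pass without ChREBP livers 4, 5 and 6 and GFP liver 6, at 0.28 (limma adjusted p = 0.0764), nor without the pair of livers numbered 6, at 0.19 (limma adjusted p = 0.173). In the fit to all livers the upper bound of the interval was 1.29-fold.

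Fasn (ENSMUSG00000025153_at), the multifunctional synthase that makes palmitate, had a lowest value of 9.84, a median of 9.99 and a highest of 10.31 in ChREBP livers, and 8.32, 8.65 and 8.78 in GFP livers. No ChREBP liver came within 1.06 of a GFP liver. The rise was 2.68-fold (95% interval 2.32 to 3.10, log2 change 1.42, SE 0.10, limma adjusted p = 2.24e-07). Its change was close to that of Me1, and the intervals of both genes overlapped. Counting Acaca, Fasn, Me1 and Acly, the rises ranked 60, 209, 212 and 357 among all genes, and Slc25a1 ranked 1113.

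Srebf1 (ENSMUSG00000020538_at) encodes SREBP-1, the membrane-bound factor that activates most genes of this pathway once it is cleaved. It ranged from 7.26 through 7.52 to 7.68 in ChREBP livers and from 7.26 through 7.47 to 7.63 in GFP livers (lowest, median and highest). The ranges lay almost on top of each other, with 1 of 6 ChREBP livers above all GFP livers. The log2 change was 0.03 (SE 0.09, limma adjusted p = 0.803), and its 95% interval ran from 0.90-fold to 1.16-fold. The value summarises all transcripts of the gene, so the 1a and 1c isoforms were not told apart, and cleavage of the protein is not read by an RNA array.

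**Figure D2:**
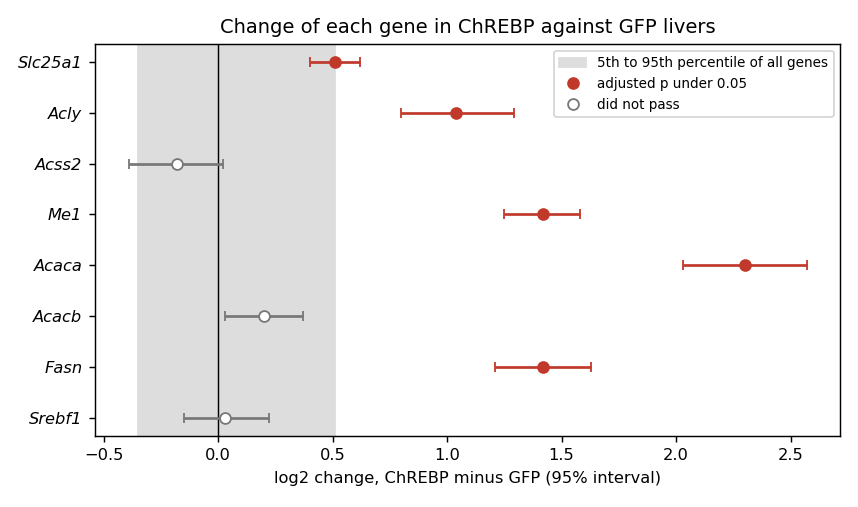
Log2 change (ChREBP minus GFP) of each gene with its 95% interval from limma, filled where the adjusted p was under 0.05, on a grey band that holds the 5th to 95th percentile of the changes of all genes (-0.35 to 0.51). Acly, Me1, Acaca and Fasn lay beyond the band, Slc25a1 at its edge at 0.51, and Acss2, Acacb and Srebf1 within it.

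Whether the steps changed by equal amounts was addressed by subtracting the log2 values of 2 genes within each array and comparing this difference between the groups. Levels of different probe sets cannot be set against each other on an array, but a shift of their difference shows unequal change of the array values. Dim values are compressed by RMA, so the matching difference in transcripts may be of another size. The test was done for 6 pairs chosen by their roles in the pathway, with earlier results of these data known. It was a two-sided exact permutation test (6 livers per group, Benjamini-Hochberg over the 6 pairs), and the smallest p that 924 arrangements allow is 0.00216. In Acaca minus Acacb, Acly minus Acss2 and Fasn minus Srebf1, a gene that was called is set against a gene that was not. Their separation largely follows from the changes of the single genes and adds no independent evidence. The same largely holds for Acly minus Slc25a1 and Fasn minus Acaca, where the 95% intervals of the single changes were already apart.

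The carboxylase isoforms changed by unequal amounts. Acaca minus Acacb was 2.00 to 2.25 in ChREBP livers (median 2.14) and -0.39 to 0.32 in GFP livers (median 0.12), so that every ChREBP liver lay above every GFP liver. Acaca thus changed by 2.10 more than Acacb on the log2 scale (95% interval 1.81 to 2.39), or 4.29-fold more (exact permutation p = 0.00216, adjusted p = 0.0026). The difference was also more even in ChREBP livers, with an SD of 0.10 against 0.30 in GFP livers (n = 6 each).

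The genes of the sources of acetyl-CoA also changed by unequal amounts. Acly minus Acss2 was 0.26 to 0.83 in ChREBP livers and -1.22 to -0.34 in GFP livers, without overlap, a difference in change of 1.23 (95% interval 0.88 to 1.57, exact permutation p = 0.00216, adjusted p = 0.0026). GFP liver 2, at -1.22, was the farthest from its group, as its Acly was the lowest and its Acss2 the highest of the GFP livers. The lyase also rose more than the carrier that feeds it. Acly minus Slc25a1 was -0.72 to -0.36 in ChREBP livers and -1.47 to -0.91 in GFP livers, a difference in change of 0.54 (95% interval 0.29 to 0.79, exact permutation p = 0.00216, adjusted p = 0.0026).

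Downstream of acetyl-CoA, Fasn rose less than Acaca. Fasn minus Acaca was -0.13 to 0.11 in ChREBP livers and 0.64 to 1.07 in GFP livers, which do not overlap, and the difference in change was -0.88 (95% interval -1.04 to -0.71, exact permutation p = 0.00216, adjusted p = 0.0026). Fasn also moved apart from Srebf1, the gene of its activator. Fasn minus Srebf1 was 2.39 to 2.80 in ChREBP livers and 0.70 to 1.52 in GFP livers, a difference in change of 1.39 (95% interval 1.06 to 1.72, exact permutation p = 0.00216, adjusted p = 0.0026). Me1 minus Acly overlapped between the groups, from 1.75 to 2.12 in ChREBP livers and from 1.17 to 2.12 in GFP livers. Its difference of 0.38 (95% interval 0.03 to 0.72, exact permutation p = 0.0346, adjusted p = 0.0346) passed only narrowly. It no longer passed when any of 9 of the 12 livers was left out, namely ChREBP livers 1, 2, 4, 5 and 6 and GFP livers 1, 4, 5 and 6 (adjusted p 0.0519 to 0.0693, exact permutation), while the difference itself stayed between 0.28 and 0.47 without each liver in turn.

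**Figure D3:**
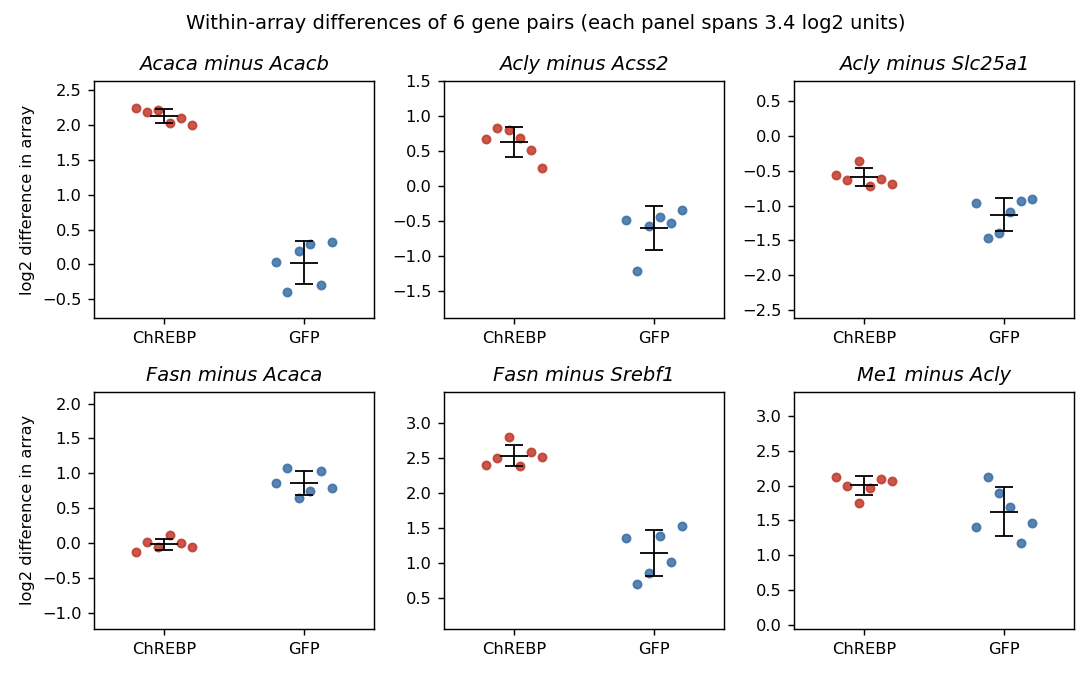
Log2 difference between 2 genes within each array for 6 pairs, ChREBP (left, n = 6) and GFP (right, n = 6), with mean and SD as bars; all panels span the same number of log2 units. The groups were apart for 5 pairs and overlapped for Me1 minus Acly (1.75 to 2.12 in ChREBP and 1.17 to 2.12 in GFP livers).

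Within the ChREBP group some livers were high or low for most of the 8 genes. ChREBP liver 3 lay above the group mean for 8 of 8 genes, most for Acly (0.34), Acaca (0.32) and Fasn (0.30). ChREBP liver 4 was below the mean for 7 of 8 genes, and ChREBP livers 5 and 6 for 6 of 8. ChREBP livers 4, 5 and 6 were also those with many genes far above the other livers, and the part of this in their lower values was not tested. Averaged over Acly, Acaca, Fasn and Me1, the difference from the GFP mean was 1.81 in ChREBP liver 3, 1.60 in ChREBP livers 1 and 2, 1.44 in ChREBP livers 5 and 6 and 1.38 in ChREBP liver 4. When ChREBP livers 4, 5 and 6 and GFP liver 6 were left out, the rises were 5.75-fold for Acaca, 3.03-fold for Fasn, 2.81-fold for Me1, 2.28-fold for Acly and 1.44-fold for Slc25a1, and the same 5 genes passed the test (limma adjusted p between 2.26e-06 and 4.12e-04).

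In the GFP group GFP liver 2 was low for Acaca (-0.48 from the group mean), Acly (-0.37) and Fasn (-0.27) but above the mean for Acss2 (0.25), Srebf1 (0.17) and Me1 (0.13). Correlations between genes across the 6 livers of a group were positive for 27 of 28 gene pairs in ChREBP livers (median Pearson r 0.52) and for 13 of 28 in GFP livers (median -0.02). Without the 2 livers farthest from the median of the first gene of each pair, 17 of the 28 correlations were above 0 in ChREBP livers and 10 were below 0. In GFP livers 12 were then above 0 and 15 below 0. The livers left out differ with the first gene, and so few livers over a narrower range give unstable correlations. The lower count in ChREBP livers therefore cannot show that the first count rests on particular livers. Slc25a1 and Acly, for example, gave r = 0.78 with all 6 ChREBP livers and -0.78 without the 2 farthest from the median of Slc25a1. Acaca and Fasn gave r = 0.94 and Spearman rho = 0.83 in ChREBP livers (exact permutation p = 0.00694 and 0.0583), and r = 0.81 without the 2 livers farthest from the median of Acaca. In GFP livers Acly and Fasn gave r = 0.96 and rho = 0.71 (exact permutation p = 0.0111 and 0.136), which dropped to r = 0.54 without the 2 livers farthest from the median of Acly. Of 56 correlations in both groups 0 passed after adjustment (smallest adjusted p = 0.207, exact permutation), while 5 in ChREBP and 2 in GFP livers had an unadjusted p under 0.05.

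**Figure D4:**
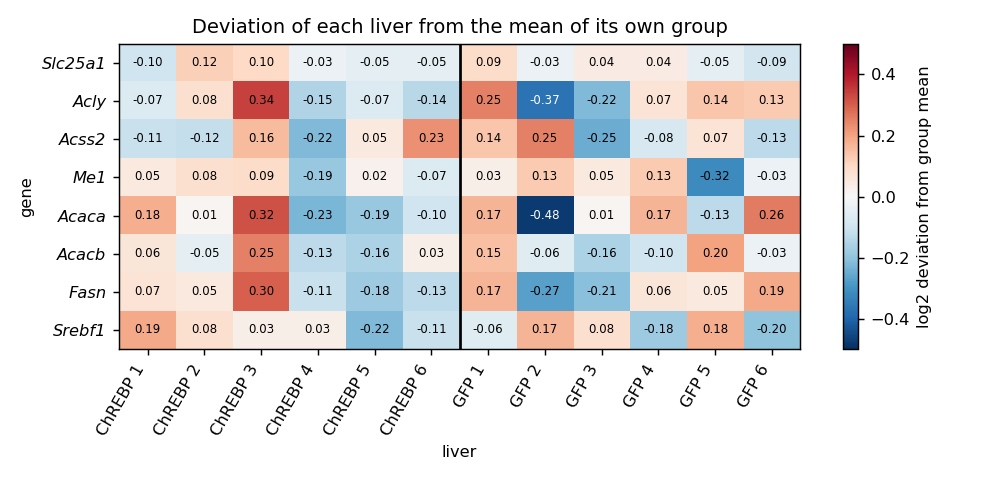
Deviation of each liver from the mean of its own group (log2, colour and printed value) for 8 genes, ChREBP livers left and GFP livers right of the line. ChREBP liver 3 was above its group mean for all 8 genes, and GFP liver 2 had the lowest Acaca (-0.48), Acly (-0.37) and Fasn (-0.27) of its group.

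The genes most like the enzymes within groups were sought among the other 22301 genes, as those whose deviations from the group means correlated best over 12 livers with the mean deviation of Acly, Acaca, Fasn and Me1. These were ENSMUSG00000054611_at (r = 0.955), ENSMUSG00000048661_at (r = 0.94) and ENSMUSG00000064759_at (r = 0.911), which have no names in the sources used here. Their log2 changes between ChREBP and GFP livers were -0.03, 0.16 and -0.06 (limma adjusted p = 0.808, 0.237 and 0.252), whereas the next 2 genes in the order, at r = 0.908 and 0.904, passed the test with changes of 0.38 and 0.61 (limma adjusted p = 0.0148 and 4.57e-04). Of the first 3, the last was dim, at 3.01 in ChREBP and 3.07 in GFP livers. As the best of so many genes over 12 livers, these values are a description only.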

How the data were processed

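RNA from 12 livers, 6 per group, was hybridised to Affymetrix Gene ST arrays (the mouse 1.0 design by the labels, a human 2.0 design by the methods), whereas the identifiers were those of mouse genes. The authors deposited log2 values made by RMA and handled in Partek, with versions and the gene-level probe set definition not given in the sources used here. RMA removes changes shared by most genes and compresses dim values. The table held 22309 genes, 12 columns and no missing value. Groups and replicate numbers came from the sample titles.

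ChREBP minus GFP was fitted with limma 3.58.1 under R 4.3.3 (lmFit, then eBayes, all genes, no filter, two-sided, Benjamini-Hochberg), called at an adjusted p of 0.05. Intervals are 95% intervals of this fit, and for pairs of a pooled-variance estimate. Permutation tests used SciPy 1.17.1 and Python 3.11.15, and figures matplotlib 3.10.9. Scripts were tested on simulated data. The precision was limited by 6 arrays per group. The members, pairs and lists were chosen with earlier results of these data known. All 8 members were named, and the 3 genes most like Acly, Acaca, Fasn and Me1 by a fixed rule. The 6 related gene lists and 9 cell type lists could not be applied, since 0 of 22309 identifiers matched the RefSeq table, whose 49997 genes carry no Ensembl identifier.

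Alternatives were other normalizations, filters at the 25th and 50th percentile of mean level, other variance settings, the methods' test, the replicate number as a block and fits without single or several livers. Same-numbered livers deviated together weakly or not at all (correlations of deviations from the group means between -0.0649 and 0.237), so the number was not taken as a pairing. The highest value, 0.237, was that of the livers numbered 6, both among those that stood apart, and the next was 0.0808.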

Additional observations from a re-analysis of the deposited data

Results flagged for a closer look

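Among 16 sets of 6 livers, 1 per gene and group, 1 set held a single distant liver by Dixon's criterion, and chance flags about 1 in 20 sets. Me1 was 10.28 in GFP liver 5, the lowest of its group, and its gap to the nearest GFP liver made up 0.645 of the group's range, where the critical value is 0.625. The rise of Me1 was 1.42 on the log2 scale with this liver and 1.36 without it.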

How the results depend on the processing

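All alternatives were chosen with earlier results of these data known. Under 25 alternatives Slc25a1, Acly, Me1, Acaca and Fasn kept their direction and passed the test, the changes ranging from 0.48 to 0.55, 0.97 to 1.19, 1.36 to 1.49, 2.21 to 2.52 and 1.37 to 1.60. Among these alternatives the filters, the methods' test and the replicate number as a block cannot alter a change, only its p. Acss2 stayed between -0.25 and -0.13 and did not pass. Acacb passed by the methods' analysis of variance without adjustment (0.20) and without ChREBP livers 4 and 5 (0.27), and lay between 0.15 and 0.24 without each liver in turn, passing without GFP liver 5, with limma adjusted p over all its alternatives up to 0.229. Srebf1, never past the threshold, turned to -0.05 after a second quantile normalization and lay between -0.01 and 0.08 without each liver in turn. Centring each array on its median cannot change a difference within an array, so it is no check of the pairs. Of the 6 pairs, 5 kept their call under all 19 alternatives run for them, median centring included. Me1 minus Acly lost it with the replicate number as a block (0.38), when ChREBP livers 4 and 5 (0.36) or both livers numbered 6 (0.33) were left out and without ChREBP livers 4, 5 and 6 and GFP liver 6 (0.30), and ranged from 0.28 to 0.47 without each liver in turn. With 3 ChREBP and 5 GFP livers few arrangements exist, which limits the smallest p. Over all genes 3131 were lower, against 4914 with median centring of the arrays and 5172 by the methods' test without adjustment. The higher genes made up 46.6% of those called, against 32.6% after median centring and 58.1% after cyclic loess normalization. The replicate number as a block gave 4787 genes called against 5859, and 1 of 6 ChREBP livers correlated best with the GFP liver of its own number. It changed no call of the 8 genes. Dim values are compressed by RMA, and no measure of array background was used here. The causes of these shifts were not tested.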
